A study of Mus musculus with 17 samples.

Results

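The miR-29 family of the mouse was read in kidneys after ischemia reperfusion injury (IRI) or sham surgery, from day 1 to day 30. Its 3 members on the array, mmu-miR-29a, mmu-miR-29b and mmu-miR-29c (below without the prefix for mouse), were taken by name from the 569 mature miRs that the array carried, and the other strands of the same hairpins (names ending in *) were kept apart. Each sample was total RNA pooled from the kidneys of 3 mice of strain C57/BL6, aged 10 to 12 weeks. The sample labels give the mice as female and the methods of the study as male. The 8 IRI pools came from kidneys after 30 min of warm ischemia on 1 side, taken on day 1, day 3, day 5, day 7, day 10, day 14, day 21 and day 30. The 8 sham pools came from mice that had the surgery without ischemia, on the same days, and 1 naïve pool came from mice with no surgery. The labels name no transgene or drug in any group. On 8 arrays the IRI pool of a day, in the dye Cy3, was hybridised together with the sham pool of that day, in Cy5, while the naïve pool, also in Cy3, had an array to itself. With 1 pool per arm and day, the days served as replicates of an arm, so p-values measure the spread between these pools and include any true change over time.

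miRs are short RNAs that guide silencing proteins to messenger RNAs, mainly through base pairing of the seed, bases 2 to 8 counted from the 5′ end. The miR-29 family is known for pairing with messenger RNAs of the extracellular matrix, among them several collagens, fibrillin and elastin, and it is described as lowered by transforming growth factor beta in fibrosis of heart, lung and kidney. Kidney fibrosis, the build-up of matrix between the tubules, develops in the weeks after severe ischemia, so days 14, 21 and 30 were taken as late days and days 1, 3 and 5 as early days. All samples were whole tissue, in which fewer cells of a type and less RNA per cell cannot be told apart.

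The mature sequences are shown because the members differ from one another by only a few bases. They are from RefSeq (mouse build GRCm38.p6), with the seed in capitals.
miR-29a: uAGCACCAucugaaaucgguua
miR-29b: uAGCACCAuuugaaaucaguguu
miR-29c: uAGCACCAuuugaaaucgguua

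The seed AGCACCA was the same in all members, and no other of the 569 array miRs, and no other of 1679 mature miR names in the RefSeq table, carried it. Counted from the 5′ end, miR-29a and miR-29c differed at 1 of 22 bases (C10U, miR-29a first). miR-29b and miR-29c differed at 3 of 22 compared bases (A18G, G21U and U22A, miR-29b first), and miR-29b was 23 bases long against 22. The nearest array miR outside the family, miR-200a, had at least 9 mismatches to each member when aligned without gaps. A probe for miR-29a can therefore meet a target with 1 mismatch in miR-29c, and how much each probe read of the other member was not tested.

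The 4 hairpin genes lie in 2 pairs. Mir29a holds the mature sequence at chr6:31062673-31062694 on the minus strand, and 275 bases separate its hairpin from that of Mir29b-1, whose mature sequence is at chr6:31063025-31063047 on the same strand. Mir29b-2 holds its mature sequence at chr1:195037091-195037113 on the plus strand, and 426 bases separate its hairpin from that of Mir29c, whose mature sequence is at chr1:195037600-195037621. The pair on chromosome 1 overlaps the annotated gene A330023F24Rik. Both miR-29b hairpins give 1 identical mature sequence, shown in capitals within each precursor, so a miR-29b probe cannot separate the loci.
Mir29b-1: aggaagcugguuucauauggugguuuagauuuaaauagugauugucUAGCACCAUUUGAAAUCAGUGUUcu
Mir29b-2: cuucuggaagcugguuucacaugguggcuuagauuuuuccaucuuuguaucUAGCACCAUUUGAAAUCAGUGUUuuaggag

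Each miR was printed as 6 spots. The levels below are intensities after background correction and normalization of the arrays to a common scale. To count as above background, a miR needed a raw mean over the median of the 250 empty spots plus 3 median absolute deviations. That median lay between 186 and 516 in the IRI pools, between 33.0 and 43.9 in the sham pools and at 511 in the naïve pool, which also had the lowest signal. A miR entered the tests when its level reached 200 in at least 1 sample, which 162 of 569 did. Of the tubule miRs listed as a check of the tissue, miR-192, miR-194 and miR-30a were above background in 17 of 17 samples, while miR-215 was above background in 1 and miR-204 in 6. The sham pool of day 30 held miR-122, a miR of liver, at a level of 3092, against 58.1 to 123 in the other samples, so late values of the members are also given without day 30.

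miR-29a and miR-29c were above background in 17 of 17 samples. miR-29b was above background in 6 of 8 IRI pools, the exceptions being days 10 and 14, in 8 of 8 sham pools and not in the naïve pool. Its highest level, 198.8 in the sham pool of day 14, lay just under the limit of 200, next to miR-193b at 198.3 outside it and miR-181d at 201.8 inside it. Only miR-29a and miR-29c, 2 of the 3 members, therefore entered the test across miRs, and miR-29b is given by its values and by exact tests. The other strands stayed close to background. Of 8 IRI and 8 sham pools, miR-29a* was above background in 1 and 0, miR-29b* in 1 and 1, and miR-29c* in 3 and 6, with levels between 83.5 and 130 in all pools with surgery.

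The level of miR-29a varied little in the IRI arm. It was 3647, 3414 and 2817 on the early days (1, 3 and 5), 3883 and 3902 on the middle days (7 and 10), and 3315, 2650.1 and 3607 on the late days (14, 21 and 30). In the sham arm it was 2029, 4064 and 3694 early, 5510.0 and 4205 on the middle days, and 4184, 3927 and 3846 late. The ranges of the arms overlapped, but within days the sham pool was the higher of the pair on every day except day 1, when it had the lowest level of any sample. Over days, the highest level was 1.47-fold the lowest in the IRI arm and 2.72-fold in the sham arm.

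miR-29c varied more from day to day. In the IRI arm, in the same order of days, it was at 1602, 985 and 486 early, at 754 and 283 on the middle days, and at 580.3, 441 and 556 late. In the sham arm it was at 419, 1407 and 639 early, at 1002 and 270.5 on the middle days, and at 862, 764 and 489.9 late. The IRI pool of day 1 held the highest level of all samples, both pools of day 10 the lowest after surgery, and the arms spanned almost the same range, 5.66-fold in IRI and 5.20-fold in sham.

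In the pools with surgery miR-29b had levels between 95.2 and 198.8, close to background. In the IRI arm it stood at 181, 158 and 118 early, at 114 and 110.1 on the middle days, and at 95.2, 117 and 111 late. In the sham arm it stood at 112, 199 and 144 early, at 128 and 111 on the middle days, and at 199, 139.9 and 123 late. The IRI levels were highest on days 1 and 3 and were at most 118 from day 5 on, and sham had its high values on days 3 and 14.

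**Figure D1:**
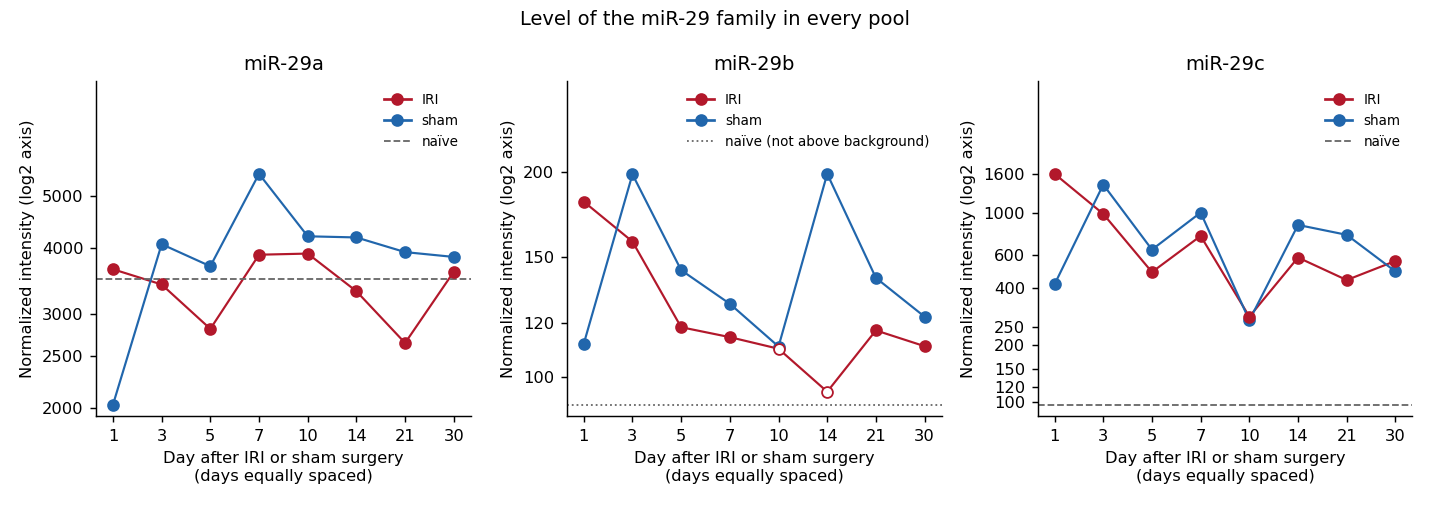
Normalized intensity of miR-29a, miR-29b and miR-29c (log2 axes, each panel on its own scale) against day after surgery, with days equally spaced, 1 pool per point. Red points are IRI, blue points sham, open points pools not above background, and the broken line the naïve pool (dotted where not above background). miR-29a and miR-29c were higher in IRI than in sham on day 1 (3647 against 2029 and 1602 against 419) and lower in IRI on days 3, 5, 7, 14 and 21.

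The spots of an array agreed well on most days. For miR-29a the coefficient of variation over the 6 raw spots was 0.842% to 6.54% in the IRI pools other than days 14 and 30, and 2.47% to 10.0% in sham. On days 14 and 30 it was 17.5% to 19.5% for miR-29a, 20.2% to 22.8% for miR-29c and 13.5% to 21.3% for miR-29b in the IRI channel. For miR-29a and miR-29c the IRI pools of days 14 and 30 thus had the widest spot error of the 17 samples.

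The IRI/sham ratio within an array showed the same sequence for all members, namely above 0 on day 1 on the log2 scale and mostly below 0 afterwards. For miR-29a the log2 ratio was 0.85, -0.25 and -0.39 on the early days, -0.50 and -0.11 on the middle days, and -0.34, -0.57 and -0.09 on the late days. The spots gave it an SE of 0.03 to 0.08, so 7 of the 8 values lay more than 2 SE from 0, all but that of day 30. Day 1 stood alone on one side of 0 and the 7 later days on the other.

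For miR-29c the log2 ratio was 1.93, -0.51 and -0.39 early, -0.41 and 0.07 on the middle days, and -0.57, -0.79 and 0.18 late. On day 1 its IRI level was 3.82-fold that of sham, which placed it 3rd from the top among the 162 tested miRs, while miR-29a, at 1.80-fold, was 19th. On day 21, the lowest-ranked day of both, miR-29c was 15th and miR-29a 28th from the bottom of the same miRs. miR-29c was already 19th from the bottom on day 3, but 55th from the top on day 10 and 60th on day 30. miR-29a was 60th from the bottom on day 30.

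For miR-29b the log2 ratio was 0.69, -0.33 and -0.28 early, -0.16 and -0.01 on the middle days, and -1.06, -0.26 and -0.14 late. The values of days 10 and 14 set sham against an IRI pool that was not above background, and the lowest one, on day 14, had a spot SE of 0.16. All 3 members shared their sign on days 1, 3, 5, 7, 14 and 21.

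**Figure D2:**
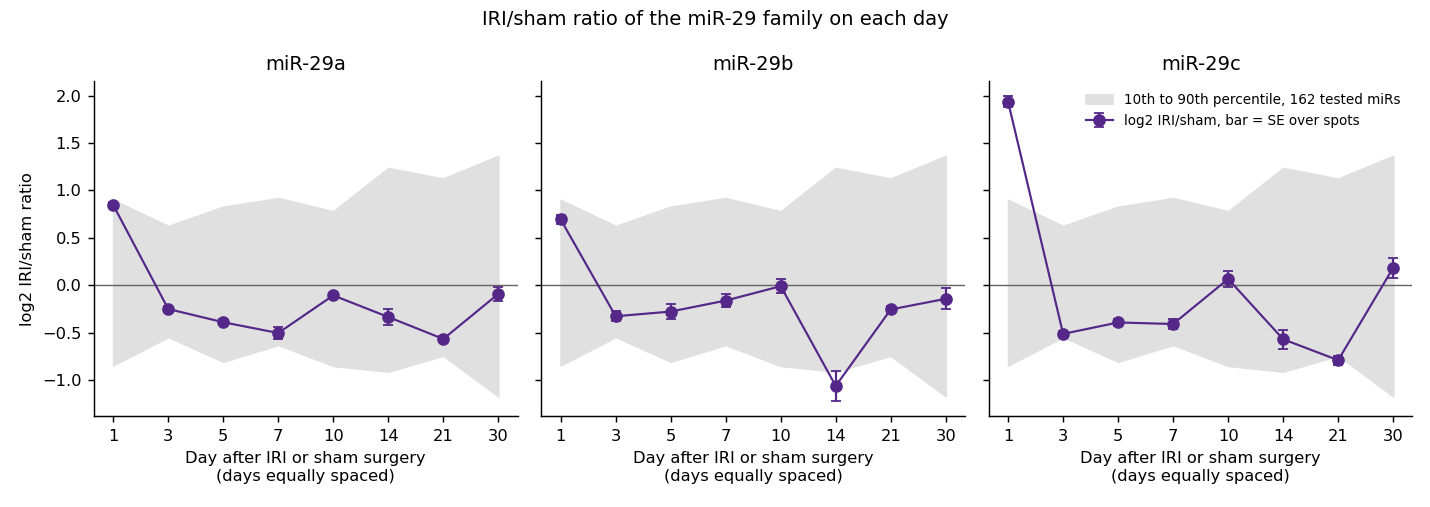
log2 IRI/sham ratio of each member on each day, with days equally spaced and bars of 1 SE over the 6 spots. The grey band runs from the 10th to the 90th percentile of the 162 tested miRs on that day. miR-29c left the band upward on day 1 (1.93 against a 90th percentile of 0.90), and miR-29b on day 14 (-1.06 against a 10th percentile of -0.91) and miR-29c on day 21 (-0.79 against -0.74) left it downward.

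The same days were read from the processed values that the authors deposited. There the day 1 log2 ratio was 0.77 for miR-29a, 1.80 for miR-29b and 1.96 for miR-29c, and 7, 7 and 5 of the 8 days were below 0. Under plain background subtraction, under the median of the spots and in the processed values, miR-29a remained below 0 on all 7 days after day 1 and above 0 on day 1. When each channel was only scaled to a common median, day 1 stayed above 0 for every member (1.08, 0.91 and 2.24), but miR-29a turned to 0.97 on day 30, and only 6, 3 and 4 of the 7 later days were below 0 for miR-29a, miR-29b and miR-29c. That scaling moved the median ratio of all 162 tested miRs to between -0.25 and 0.76, depending on the day, and to 0.40 on average over the late days. Relative to that median, 6, 6 and 5 of the 7 later days lay below it.

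**Figure D3:**
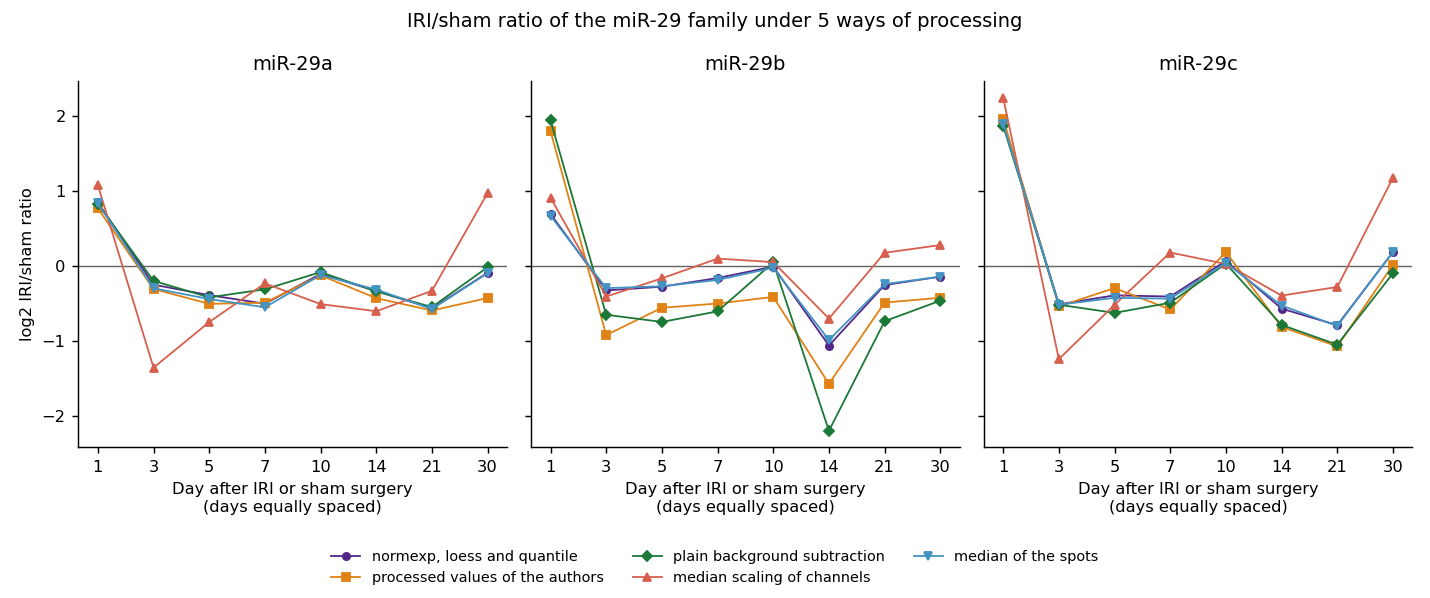
log2 IRI/sham ratio of each member against day (days equally spaced) under 5 ways of processing the same arrays. The day 1 values were above 0 in all 5, whereas on day 30 median scaling of the channels put miR-29a at 0.97 and miR-29c at 1.17, against -0.09 and 0.18 with loess and quantile normalization.

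The first comparison asked whether the family differed between IRI and sham over the whole course. Over all 8 days the mean log2 ratio of miR-29a was -0.18 ± 0.45 (SD over 8 arrays), with 7 of 8 days below 0, and limma gave a Benjamini-Hochberg adjusted p of 0.386 with a 95% interval of -0.51 to 0.16. For miR-29c the mean was -0.06 ± 0.87, with 5 of 8 days below 0, an adjusted p of 0.849 by limma and an interval of -0.69 to 0.57. Its mean was -0.14 in the processed values, -0.21 under plain subtraction and 0.15 under median scaling. It also turned above 0 without day 3 (0.0025), day 14 (0.0106) or day 21 (0.0422). For miR-29b the mean was -0.19 ± 0.48, -0.07 without day 14, and 0.0283 under median scaling. It was -0.39 in the processed values and -0.43 under plain subtraction. Two-sided exact sign-flip permutation tests over the 8 arrays gave p = 0.305, 0.320 and 0.898 for miR-29a, miR-29b and miR-29c, where the smallest possible value is 0.0078125. None of the 2 tested members passed, against 36.4% of the 162 tested miRs called in this comparison, 18.5% as higher and 17.9% as lower. A dye effect that stays equal over the arrays is part of these means, since the dyes were not swapped.

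Day 1 decided this result for miR-29a. With day 1 left out, its mean log2 ratio was -0.32 ± 0.18 (SD over 7 arrays), a level 1.25-fold lower in IRI, with 7 of 7 days below 0, and limma gave an adjusted p of 0.0210 while again calling 17.9% of the 162 miRs lower. Day 1 was the only one of the 8 days whose removal brought a call for a member, and over the 17 alternatives of this comparison the adjusted p of miR-29a by limma ranged from 0.0210 to 0.586. For miR-29b the mean without day 1 was -0.32 ± 0.34, with 7 of 7 days below 0. In the processed values it was -0.70 (7 of 7), under plain subtraction -0.77 (6 of 7) and under median scaling -0.10 (3 of 7), so that 7 of 7 days, on which the exact p below rests, was not kept under plain subtraction or median scaling. For miR-29c it was -0.35 ± 0.35, with 5 of 7 days below 0 and an adjusted p of 0.0644 by limma. The two-sided exact sign-flip permutation tests over these 7 arrays gave p = 0.015625 for miR-29a and miR-29b, the smallest that 7 arrays allow, and 0.0625 for miR-29c. Under median scaling miR-29a lay below 0 on 6 of these 7 days, with day 30 at 0.97. Since day 1 was seen to stand apart before it was left out, these p-values describe the remaining days only.

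Being above 0 on day 1 was common, at 53.1% of the 162 tested miRs, and 14.2% were below 0 on all 7 later days. Both together held for 9 miRs, or 5.56%. These were miR-29a, miR-187, miR-194, miR-22, miR-30d, miR-30e, miR-429, miR-451 and miR-720, which are named here because they share this sequence of signs, chosen after their values were seen. Within this group, miR-451, a miR of red blood cells, had the highest day 1 ratio (1.81), and miR-29a, at 0.85, the next.

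The second comparison concerned the late days. On days 14, 21 and 30 the mean log2 ratio was -0.33 ± 0.24 (SD over 3 arrays) for miR-29a, -0.49 ± 0.50 for miR-29b and -0.39 ± 0.51 for miR-29c. The differences were below 0 for each member, and limma did not call miR-29a (adjusted p = 0.349, 95% interval -0.91 to 0.25) or miR-29c (adjusted p = 0.564, interval -1.50 to 0.72), against 42% of the 162 tested miRs called. Without day 30, the mean of days 14 and 21 was -0.45 for miR-29a (adjusted p = 0.349 by limma), -0.66 for miR-29b and -0.68 for miR-29c (adjusted p = 0.458). Other days moved it the other way, to -0.20 for miR-29b without day 14, and to -0.21 for miR-29a and -0.19 for miR-29c without day 21. Over the 18 alternatives of each, the adjusted p ranged from 0.0970 to 0.997 for miR-29a and from 0.174 to 0.878 for miR-29c, the lowest being the fits without day 1. For miR-29b the late ratio was -0.83 in the processed values, -1.13 under plain subtraction and -0.08 under median scaling, and for miR-29c it was -0.63 and -0.65 in the processed values and under plain subtraction. The late ratio turned to 0.01 for miR-29a and 0.17 for miR-29c under median scaling, which are -0.39 and -0.23 relative to the median of the tested miRs under that scaling.

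Late days were next set against early days within the ratio, a difference in which an equal dye effect on all arrays cancels. The early mean was 0.07 ± 0.68 for miR-29a and the late mean -0.33 ± 0.24, a difference of -0.40 (limma adjusted p = 0.542, 95% interval -1.22 to 0.42). For miR-29c the means were 0.34 ± 1.38 and -0.39 ± 0.51, a difference of -0.74 (adjusted p = 0.561 by limma, interval -2.31 to 0.84). For miR-29b the difference was -0.52, and it was -0.94 in the processed values and -0.19 under median scaling. Exact permutation of 3 late against 3 early arrays, two-sided, gave p = 0.5, 0.6 and 0.5 for miR-29a, miR-29b and miR-29c, where this design cannot go below 0.1. The test across miRs called 5.56% of 162 miRs and no member. Without day 30 the differences were -0.52, -0.69 and -1.02, and without day 1 they were -0.01, -0.18 and 0.06, so the early days 3 and 5 had nearly the same ratio as the late days for miR-29a and miR-29c. Median scaling gave 0.36 for miR-29a and 0.01 for miR-29c, which are -0.07 and -0.42 relative to the median of the tested miRs under that scaling.

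Within the arms, the late and early levels were also compared. miR-29b lay between 118.4 and 181 in IRI on the early days and between 95.2 and 117.1 on the late days, a difference of -0.48 on the log2 scale, and exact permutation of 3 against 3 gave p = 0.1, two-sided, the smallest it allows. The nearest early and late values, 118.4 and 117.1, were closer than the spots could separate, and in the processed values of the authors the days overlapped, at 93, 67 and 37 early and 42, 46 and 31 late. Under median scaling the difference was -0.12. One of its late IRI pools, that of day 14, was not above background. How many of the 162 tested miRs had early and late IRI levels without overlap was not counted. The IRI level of miR-29c changed by -0.81 from early to late days (limma adjusted p = 0.351) and that of miR-29a by -0.05 (adjusted p = 0.918), against 9.88% of 162 miRs called. With 1 day left out, the value of miR-29c lay between -1.27 (without day 5) and -0.41 (without day 1), while that of miR-29a turned to 0.03 without day 1 and to 0.0793 without day 21. In sham the differences were 0.35 for miR-29a (adjusted p = 0.689 by limma), -0.07 for miR-29c (adjusted p = 0.991) and 0.03 for miR-29b, with 1.23% of the miRs called. The sham difference of miR-29a was 0.04 without day 1, and it turned to -0.40 under median scaling. Without day 30 the IRI differences were -0.14 for miR-29a, -0.51 for miR-29b and -0.85 for miR-29c. The sham differences without that day were 0.38, 0.18 and 0.17, so that of miR-29c turned above 0, as it also did without day 3 (0.41).

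Against the naïve pool no test was run, since there was 1 such pool, on an array of its own. miR-29a was at 3494 in naïve, the IRI mean being 0.966-fold and the sham mean 1.09-fold of it, with naïve inside the range of both arms. In the processed values of the authors both arms were on average below naïve (4527), by mean log2 differences of -0.35 for IRI and -0.08 for sham, so that the direction for sham turned. miR-29c was at 97.2 in naïve, below all 16 pools with surgery, and the mean levels were 6.43-fold higher in IRI and 6.72-fold higher in sham. In the processed values of the authors miR-29c was at 194 in naïve against 226 to 1539 in IRI and 199 to 1533 in sham, again below all 16, with mean log2 differences of 1.59 and 1.74. The raw signal of miR-29c in naïve exceeded the empty spots by only 62.3, on the array with the lowest signal. Being lowest in naïve was not particular to miR-29c. Among the markers of cell types below, miR-30a (1045), miR-126-3p (3006) and miR-150 (101), with others, were also lower in naïve than in all 16 pools. miR-192 (10655) and miR-143 (3725) were higher in naïve than in all 16. How many of the tested miRs were lowest in naïve was not counted. The sham folds also set Cy5 against Cy3. miR-29b was not above background in naïve, and no fold is given. In the processed values it was at 43 in naïve, with 3 of 8 IRI and 5 of 8 sham pools above that.

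Across the 8 arrays the ratio of miR-29a followed that of miR-29c closely (Pearson r = 0.98, 0.84 without day 1). For miR-29b the correlation was 0.74 with miR-29a and 0.81 with miR-29c, and 0.18 and 0.48 without day 1. The members of a pair read on the same arrays share the array, the dyes and, for miR-29a and miR-29c, nearly the same target sequence, so these are descriptions over 8 arrays. Outside the family, the ratios most like the mean of the 3 members were those of miR-187 (r = 0.91), miR-203 (0.90), miR-365 (0.90), miR-1 (0.89) and miR-425 (0.88). Without day 1 these fell to 0.70, 0.54, 0.64, 0.30 and 0.70, day 1 being the array on which miR-203 reached 1.63 and miR-365 0.92.

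Other miRs described in fibrosis were read for comparison. These lists were chosen with earlier results of these data known. The study itself names miR-21, miR-199a-3p, miR-214 and miR-192 as different between IRI and sham. The counts below are therefore not independent of these data. Of 12 miRs described as raising fibrosis or rising with it, 8 were tested, and limma called 5 higher in IRI and 2 lower over the 8 days, where 18.5% of all 162 tested miRs were called higher and 17.9% lower, with a median log2 ratio of 0.80 against -0.04 for all 162. miR-21, which is induced in injured epithelium, rose by 2.51, miR-199a-3p by 1.87, miR-155, a miR of activated leukocytes, by 1.52 and miR-214 by 1.16. The 2 lower ones were miR-192, a miR of tubule epithelium, at -0.88, and miR-377, which was above background in only 9 of 17 samples and whose ratio, -1.03 here, was -2.67 in the processed values and -3.15 under plain subtraction. Of 16 miRs described as restraining fibrosis or epithelial-mesenchymal change, 13 were tested, 0 were called higher and 6 lower, with a median of -0.34. miR-200a, of the family that represses the ZEB factors and so maintains epithelium, was lower by a log2 ratio of -1.11, let-7b by -0.80, let-7c by -0.77 and miR-429 by -0.51. Under median scaling 18.5% of the 162 miRs were called higher and 5.56% lower. The raising list then had 5 higher and 2 lower, the restraining list 0 higher and 2 lower, and miR-200a (adjusted p = 0.0600 by limma) and miR-429 (0.266) were not called. The ratios of let-7b and let-7c were -0.43 and -0.39 in the processed values and -0.42 and -0.38 under plain subtraction, where limma did not call let-7c (adjusted p = 0.0635). The late medians of the lists were 0.99 and -0.44 against 0.02, with 4 higher and 2 lower of 8, and 0 higher and 5 lower of 13, where 24.7% of all tested miRs were called higher and 17.3% lower. Under median scaling the late medians were 1.4997 and -0.08 against 0.44 for all tested miRs, with 5 higher and 1 lower, and 0 higher and 2 lower, beside 28.4% of the 162 miRs called higher and 3.70% lower. With loess and quantile normalization, the late ratios of miR-29a (-0.33) and miR-29c (-0.39) thus lay near the median of the restraining list, and neither was called.

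**Figure D4:**
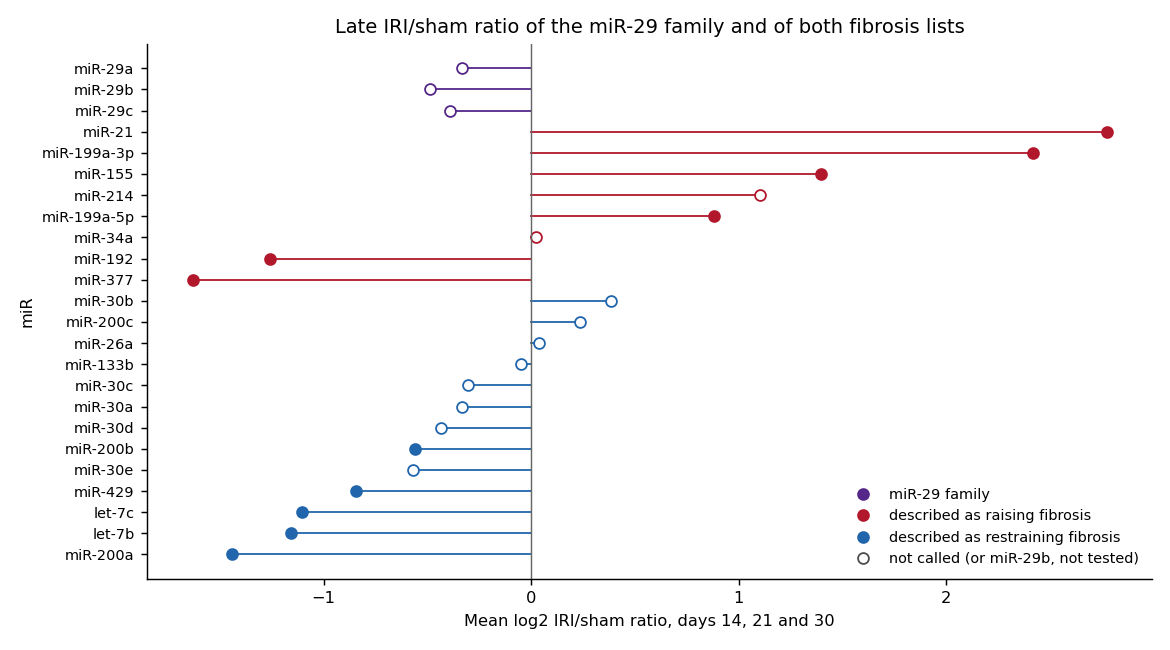
Mean log2 IRI/sham ratio over days 14, 21 and 30 for the miR-29 family (purple) and for the tested miRs described as raising (red) or restraining (blue) fibrosis. Filled points passed an adjusted p of 0.05 by limma, open points did not, and miR-29b was not tested. The family lay between -0.49 and -0.33, while miR-21 reached 2.77, miR-200a -1.44 and miR-377 of the raising list -1.63.

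Markers of cell types moved between the arms as well. The summed level of 5 listed tubule miRs, of which 3 were above background in all samples, was 4250 to 5446 in late IRI pools against 7853 to 9955 in late sham pools, while on day 1 it was 8991 in IRI and 9370 in sham. miR-204 of that list went the other way on the late days, at 184, 170.1 and 141 in IRI and 92.4, 104 and 106 in sham. For the 3 miRs of fibroblasts and mesenchyme the late sums were 7846 to 9835 in IRI and 2044 to 3325 in sham. The 5 leukocyte miRs summed to 1447 to 3266 in IRI and 820 to 1177 in sham over all days, with miR-142-3p and miR-142-5p each above background in 2 of 17 samples. On day 1, when the family was higher in IRI, the sums of all lists except tubule were also higher in IRI, among them leukocytes (2531 against 1123), endothelium (9107 against 6001) and the erythroid list of miR-451, miR-144 and miR-486 (1209 against 497). The list of miRs not of kidney was among these too (672 against 531). The leukocyte sum was mostly miR-155 (1944 against 629), and the endothelial sum mostly miR-126-3p (9005 against 5904). Single miRs of these lists went the other way on day 1, with miR-214 at 529 in IRI and 672 in sham and miR-143 at 1334 and 1641. miR-142-3p (90.8 and 91.1) and miR-142-5p (86.8 and 90.7), not above background in either pool, were also slightly lower in IRI. The erythroid sum was lower in IRI on the late days (328 to 402 against 837 to 1491), and miR-144 was above background in 1 of 17 samples. The late sums of the smooth muscle and pericyte list were 3476 to 5792 in IRI and 5699 to 9588 in sham. Its miR-145 was lower in IRI on each late day, at 2083, 4400 and 2990 against 4338, 4862 and 8169. The other miR of that list, miR-143, was higher in IRI on each late day, at 1393, 1392 and 2145 against 1362, 1362 and 1418. The part of these shifts in the ratios of the family was not tested.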

How the data were processed

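Small RNA was fractionated from total RNA, tailed, ligated to a tag and hybridised, per the labels. The authors deposited the mean intensity of each spot for 9 arrays, with no background correction, and a table of processed intensities, with the steps behind it not given in the sources used here. Its columns correlated with their own scanner channel at 0.981 to 0.9996 and with the other channel at 0.834 to 0.956, which also settled the channels of day 5, whose array header names samples A and B. From the scanner intensities, normexp (offset 50) was applied per channel, the 6 spots were averaged, and loess (span 0.3, control spots at weight 0) and quantile normalization of the array means with naïve followed. Log2 ratios and levels of 162 miRs reaching 200 in a sample were tested with limma 3.58.1 in R 4.3.3, in 5 comparisons, with Benjamini-Hochberg adjustment over all of them and a threshold of 0.05. The array was the block, through the ratio: IRI and sham pools share a number because they share an array, and their deviations from the arm means correlated at -0.06 to 0.71 over arrays. Day 10 was kept, although the study leaves it out. Processed values were put on the log2 scale with 1 added. The code was tested on simulated data. Array entries were matched to RefSeq by identical sequence for 6 of 6 strands. Precision is set by the number of arrays, and no samples were identical (highest correlation between samples 0.992). Members were the names given, the miRs most like them were the 5 with the highest correlation to their mean ratio, and list examples were the called miRs with the largest mean ratios. The members and lists were chosen with earlier results of these data known. The alternatives were the processed values, plain background subtraction, median scaling, a floor of 200, filters on dim miRs, the median of the spots, a trended robust variance, no block, other early or late days, a slope over log2(day) and each day left out in turn.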

Additional observations from a re-analysis of the deposited data

Results flagged for a closer look

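Among the 9 sets of 8 values tested (the IRI levels, sham levels and log2 ratios of the 3 members), 3 held a value far from the others by Dixon's ratio of gap to range, above its 95% limit for 8 values. Chance alone gives about 1 in 20 per set. The sets are not independent, since each ratio set is the IRI levels less the sham levels of the same member. The 3 flags all concern day 1 and are not separate events. The log2 level of miR-29a in the sham pool of day 1 (2029) lay below the other sham pools with a gap of 0.6 of the range. The log2 IRI/sham ratio of day 1 lay above the other days for miR-29a (0.85, gap 0.664) and for miR-29c (1.93, gap 0.642). The day 1 array had 276 miRs above background in IRI and 248 in sham, against 124 to 372 and 154 to 206 on the other days, so that its sham pool had the most of all sham pools, and the SD of its log2 ratios over the 162 tested miRs was 0.92 against 0.51 to 1.15 on the other arrays. The part of the day 1 array in these values was not tested, since there was 1 pool per arm.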

How the results depend on the processing

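Beside leaving out days, 134 of 145 member values kept their direction and their side of the threshold or moved by less than the spread between days. Under median scaling 6 tested values turned: the mean ratio of miR-29c (0.15), the late ratio of miR-29a (0.0113) and miR-29c (0.17), their late minus early ratio (0.36 and 0.0060) and the sham level of miR-29a (-0.40), the mean ratio of miR-29b, which had no test across miRs, changed sign by less than the spread between days (0.0283), and its IRI difference moved to -0.12. With days 1 to 10 as early days the sham difference of miR-29c turned to 0.11. Plain subtraction moved miR-29b to -1.13 (late ratio), -1.32 (late minus early ratio) and -0.94 (IRI level). The median ratio of the tested miRs moved with median scaling, and the cause of the other changes was not tested. Leaving out 1 day at a time gave, for miR-29a, mean ratios of -0.32 (without day 1, the only call) to -0.12, late ratios of -0.45 to -0.21, late minus early ratios of -0.63 to -0.01, IRI differences of -0.16 to 0.0793 and sham differences of 0.04 to 0.54. For miR-29b these were -0.32 to -0.07, -0.66 to -0.20, -0.70 to -0.18, -0.66 to -0.35 and -0.17 to 0.25. For miR-29c they were -0.35 to 0.0422, -0.68 to -0.19, -1.16 to 0.0610, -1.27 to -0.41 and -0.47 to 0.41. The mean ratio of miR-29c was above 0 without day 3 (0.0025), 14 or 21, its late minus early ratio without day 1, its sham difference without day 3 or 30 and the IRI difference of miR-29a without day 1 or 21. Without the block for the array, no call on a member changed (miR-29a mean ratio -0.18, limma adjusted p = 0.451), and calls in the late minus early ratio were 5 higher and 2 lower in place of 8 and 1. Calls over all miRs, higher and lower, were 30 and 29 for the mean ratio, 40 and 28 late, 8 and 1 for late minus early, 11 and 5 for IRI levels and 2 and 0 for sham levels. The floor of 200 gave 16 and 14, 22 and 8, 4 higher, 3 and 0, and 1 higher. No filter gave 51 and 49 for the mean ratio, 4 lower for late minus early, 6 and 0 for IRI levels and 1 higher for sham. The filter on the mean gave 19 lower, 26 higher late, 3 and 3 for late minus early and 6 higher for IRI levels. Median scaling gave 9 lower, 7 lower late, 5 and 0 for late minus early, 0 lower for IRI levels and 0 higher for sham. Processed values gave 23 higher late, 3 higher, 5 higher and 0 higher in the last 3 comparisons, and plain subtraction 26 higher late, 4 and 3, 4 higher and 0 higher. Days 21 and 30 alone gave 25 and 15 late, days 1 to 10 as early days 4 lower and 2 lower for the ratio and IRI levels, and the slope 2 and 2, 7 higher, and 1 and 1. Leaving out 1 day gave 18 to 32 higher and 8 to 29 lower for the mean ratio, 21 to 40 and 10 to 28 late, 4 to 14 and 1 to 7 for late minus early, 2 to 10 and 0 to 4 for IRI levels, and 0 to 3 and 0 to 3 for sham levels. By limma, 6 miRs were lower in sham at an unadjusted p under 0.05, where 0 were called. The floor of 200 gives no value for miR-29b, whose levels all lie under it, and signal near background limits every value of that member.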
